A study of Saccharomyces cerevisiae with 18 samples.

Results

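The genes described here encode the enzymes and 1 permease with which budding yeast breaks down arginine, proline and allantoin for nitrogen. They were chosen by name, as a fixed list of 10 of the 5830 genes in the deposited table. Earlier results of these data were known when the list was made. All 10 passed the filter on low values that left 5786 genes for testing. The list holds *CAR1* (YPL111W), *CAR2* (YLR438W), *PUT1* (YLR142W), *PUT2* (YHR037W), *DAL1* (YIR027C), *DAL2* (YIR029W), *DAL3* (YIR032C), *DAL4* (YIR028W), *DAL7* (YIR031C) and *DUR1,2* (YBR208C).

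Poly(A) RNA was sequenced from 6 strains of *Saccharomyces cerevisiae* in 3 independent cultures each, grown in the rich glucose medium YPD. ISW1a is a chromatin remodeler built from the ATPase Isw1 and the subunit Ioc3, and Yaf9 is a subunit shared by the histone acetyltransferase NuA4 and the H2A.Z-depositing remodeler SWR1. The strains were wild type (WT ISW1a in the labels), *ioc3*Δ, which has no *IOC3*, and *ioc3*Δ*cHLB*, whose Ioc3 lacks the C-terminal end of its DNA-contacting HLB domain. Deleting *YAF9* in each of these genotypes gave the other 3 strains, the single mutant *yaf9*Δ and the double mutants *ioc3*Δ *yaf9*Δ and, with the shortened Ioc3, *ioc3*Δ*cHLB yaf9*Δ. The labels give BY4742 as the background and a FLAG epitope tag for every strain, and none of the groups received a drug or other treatment.

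Libraries held 5145170 to 10192972 reads, and 1 read corresponded to 0.0854 to 0.2011 CPM, the deposited unit, which scales reads to the effective library size. The deletions matched their labels. *IOC3* had 2 reads in all 3 *ioc3*Δ libraries together against 1426 in wild type, and *YAF9* had 3 reads in the *yaf9*Δ libraries against 803. Some mating type markers went against the BY4742 label, which names an alpha strain. The a-cell receptor gene *STE2* stood at 670 to 1054 CPM in every library and the alpha-factor gene *MF(ALPHA)1* at 0.512 to 4.20 CPM. The alpha-cell gene *SAG1* was not as low as *MF(ALPHA)1*, at 24.9 to 48.3 CPM. *LEU2*, *LYS2* and *URA3*, which BY4742 lacks, stood at 42.8 to 205, 156 to 228 and 113 to 209 CPM. These departures from the label held in all 6 strains, but marker levels differed between them. *LEU2* averaged 140 CPM in wild type, 74.9 CPM in *ioc3*Δ and 53.0 CPM in *ioc3*Δ *yaf9*Δ. *STE3*, also an alpha-cell gene, averaged 1.29 CPM in wild type and 12.1 CPM in *ioc3*Δ. Whether the strains share a background was not tested. The 54 mitochondrial ribosome genes whose symbols are *MRPL*, *MRPS* or *RSM* and a number were summed, and genes with other names were left out. Their sum was 2713 CPM in wild-type replicate 2 and 2663 CPM in *ioc3*Δ*cHLB* replicate 3, the lowest of the 18 libraries. The others ran from 3871 to 8776 CPM, so values without the lowest pair of libraries were also computed.

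Yeast uses arginine, proline and allantoin as poor nitrogen sources. Arginase splits arginine into ornithine and urea. Ornithine and proline are both broken down to glutamate, by way of a shared intermediate that is oxidised in the mitochondrion. The allantoin steps release more urea, which *DUR1,2* turns into ammonium. Preferred sources such as glutamine hold many of these genes low through nitrogen catabolite repression, in which the GATA factors Gln3 and Gat1 activate and Dal80 and Gzf3 repress at GATA sites. Arginine, proline and allantoin derivatives act on top of this through the ArgR complex, Put3, and Dal81 with Dal82.

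Sequences 250 bases before to 50 bases after each start codon, read from the RefSeq annotation of sacCer3 (R64), are shown for members that the results turn on. *DUR1,2* was called in the most main comparisons and *PUT2* and *DAL7* in none. The other 3 were added after their values were seen: *CAR1* and *CAR2* because they moved together in the *yaf9*Δ strains, and *DAL1* because it lies in the same cluster as *DAL7* and moved where that gene did not. Capitals mark GATAA (GATA factors), GGCGGC (the core of the Ume6 site URS1), CGGNNNNNNNNNNCCG (Put3) and AAANNTGCG (Dal82), or their reverse complements; both strands were searched.
*DUR1,2* (chrII:642161-642460, minus strand): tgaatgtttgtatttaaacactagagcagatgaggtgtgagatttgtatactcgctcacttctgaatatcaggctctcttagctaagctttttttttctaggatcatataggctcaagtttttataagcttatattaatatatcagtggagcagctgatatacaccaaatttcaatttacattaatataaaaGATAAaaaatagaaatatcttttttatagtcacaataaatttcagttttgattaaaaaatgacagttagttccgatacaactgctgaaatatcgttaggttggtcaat
*PUT2* (chrVIII:181727-182026, plus strand): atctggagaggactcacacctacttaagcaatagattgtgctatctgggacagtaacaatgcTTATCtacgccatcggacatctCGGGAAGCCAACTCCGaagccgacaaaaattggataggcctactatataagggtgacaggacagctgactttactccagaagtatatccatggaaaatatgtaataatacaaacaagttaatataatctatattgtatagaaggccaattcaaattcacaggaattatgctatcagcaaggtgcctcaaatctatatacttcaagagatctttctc
*DAL7* (chrIX:414630-414929, minus strand): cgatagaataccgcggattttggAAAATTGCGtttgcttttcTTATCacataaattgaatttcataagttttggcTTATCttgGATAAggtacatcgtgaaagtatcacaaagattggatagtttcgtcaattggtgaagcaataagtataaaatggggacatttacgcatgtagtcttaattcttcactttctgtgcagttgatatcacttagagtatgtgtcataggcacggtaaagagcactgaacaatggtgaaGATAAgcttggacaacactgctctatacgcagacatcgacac
*DAL1* (chrIX:407593-407892, minus strand): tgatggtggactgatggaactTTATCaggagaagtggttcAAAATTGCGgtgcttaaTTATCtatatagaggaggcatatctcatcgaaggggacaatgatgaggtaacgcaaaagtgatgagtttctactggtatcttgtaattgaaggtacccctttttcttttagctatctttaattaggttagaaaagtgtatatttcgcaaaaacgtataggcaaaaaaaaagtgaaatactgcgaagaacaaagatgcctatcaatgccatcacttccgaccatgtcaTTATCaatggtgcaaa
*CAR1* (chrXVI:339694-339993, plus strand): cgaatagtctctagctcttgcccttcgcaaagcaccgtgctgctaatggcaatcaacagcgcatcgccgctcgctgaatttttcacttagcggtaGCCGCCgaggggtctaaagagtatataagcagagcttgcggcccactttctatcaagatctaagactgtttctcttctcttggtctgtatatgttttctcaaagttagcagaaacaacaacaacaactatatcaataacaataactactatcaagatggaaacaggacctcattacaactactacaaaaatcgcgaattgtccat
*CAR2* (chrXII:1012251-1012550, plus strand): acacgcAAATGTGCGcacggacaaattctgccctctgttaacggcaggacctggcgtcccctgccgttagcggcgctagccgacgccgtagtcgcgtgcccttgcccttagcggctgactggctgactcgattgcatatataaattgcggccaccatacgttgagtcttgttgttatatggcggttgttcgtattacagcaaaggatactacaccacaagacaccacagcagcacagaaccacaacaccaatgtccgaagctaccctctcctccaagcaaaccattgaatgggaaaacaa

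GATAA occurred in the windows of 7 of the 10 members, and 61.3% of 5631 yeast gene windows of this length hold it. *DAL3* held 5 matches, *DAL2* and *DAL7* 4 each, *DAL1* and *PUT1* 3 each, and *DUR1,2* and *PUT2* 1 each. Windows with at least 3 matches made up 7% of all windows. *CAR1*, *CAR2* and *DAL4* held none. The URS1 core occurred in *CAR1*, 155 bases before the start codon (4.92% of all windows), and the Put3 motif in *PUT2*, 166 bases before it (1.1% of all windows). The Dal82 motif occurred in *CAR2*, *DAL1*, *DAL2* and *DAL7* (4.88% of all windows), and in *DAL1* and *DAL7*, at 210 and 227 bases before the start, it had the same letters. The *DAL1* and *DAL7* windows above therefore carry the same kinds of match. A match describes letters only.

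In wild type the members lay over a wide range. Per kilobase of coding sequence the means were 94.1 CPM for *PUT2* and 91.8 CPM for *CAR1*, followed by *DAL3* at 34.0, *DAL7* at 27.6 and *PUT1* at 18.1 CPM per kb. *DUR1,2* stood at 12.9, *DAL2* at 10.01, *CAR2* at 8.34, *DAL1* at 2.52 and *DAL4* at 1.85 CPM per kb. The genes for arginase and for the last step of proline breakdown thus had the highest levels, and the allantoin permease and allantoinase the lowest. No member has an intron or overlaps another annotated gene, and every stretch of 76 bases of their coding sequences occurs once in the genome. In bulk RNA, a change in the share of cells that express a gene and a change in RNA per cell cannot be told apart.

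**Figure D1:**
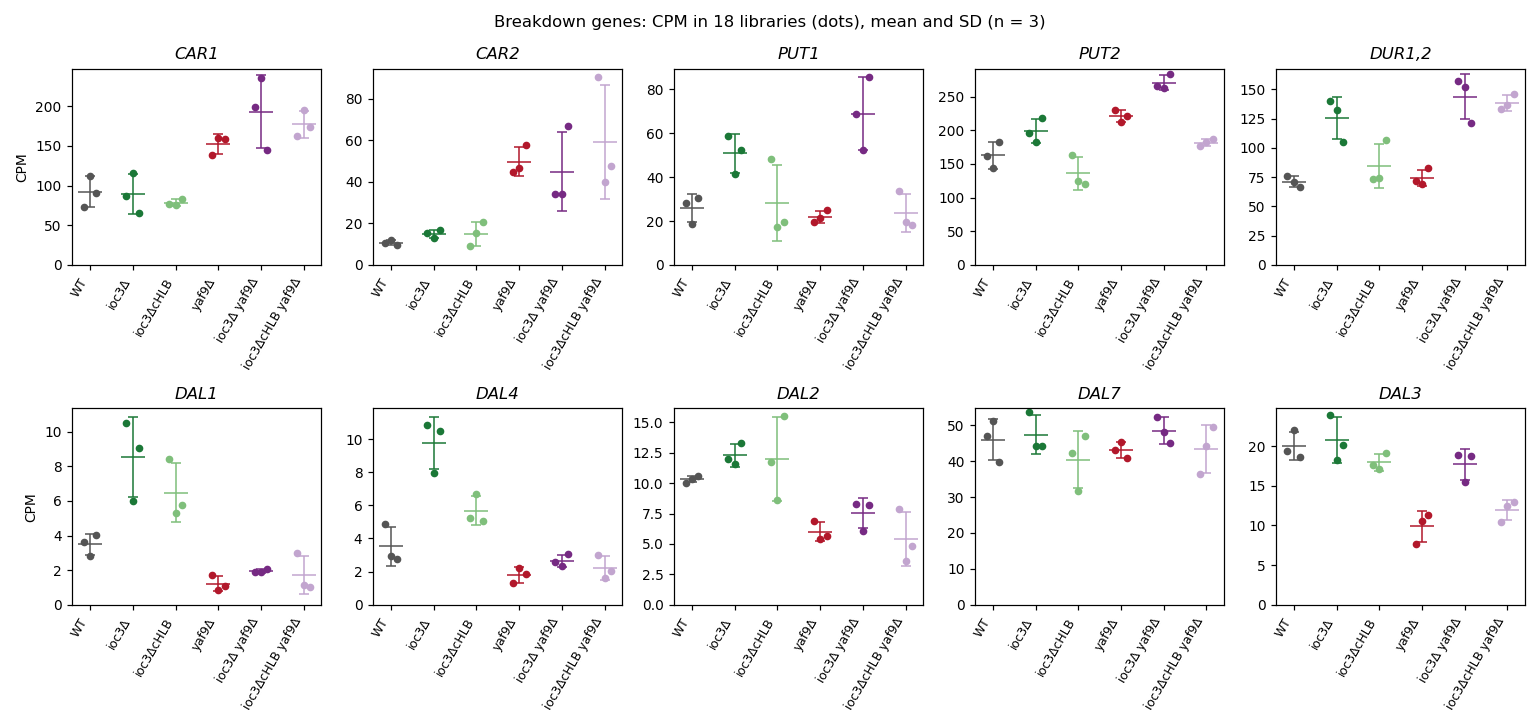
CPM of the 10 members in each of the 18 libraries (dots), with the strain mean and SD (bars, n = 3) on linear axes that start at 0. *CAR1* and *CAR2* were high in the 3 strains without *YAF9*, *DAL1* and *DAL4* were low in them, and *DAL7* stayed between 31.7 and 53.6 CPM in every library.

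In *yaf9*Δ against wild type, 2 of 10 members rose, both for arginine breakdown, and 4 fell, all for allantoin use (*DAL1*, *DAL2*, *DAL3* and *DAL4*, but not *DAL7*), by limma on log2(CPM + 1) with a Benjamini-Hochberg adjusted p under 0.1 and at least 1.5-fold. Of all genes tested, 3.91% were called higher and 3.61% lower. The median log2 change was -0.15 over the members and -0.01 over all genes. All fold changes below are on the log2(CPM + 1) scale with the standard error from that fit, which understates changes of weakly expressed genes, and all adjusted p-values are from limma.

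*CAR2* (chromosome XII, 1012501 to 1013775), the ornithine transaminase that follows arginase, changed the most. Its 3 wild-type libraries stood at 10.3, 12.04 and 9.54 CPM, and the *yaf9*Δ libraries at 44.7, 46.7 and 57.6 CPM. The groups were far apart, with means of 10.6 ± 1.27 and 49.7 ± 6.96 CPM (SD, n = 3), and the log2 fold change was 2.12 ± 0.30 (adjusted p = 0.000464). *CAR1* (chromosome XVI, 339944 to 340945), the arginase itself, stood at 73.1, 112.0 and 90.8 CPM in wild type and at 138, 160 and 159 CPM in *yaf9*Δ. The libraries did not overlap, and the log2 fold change was 0.74 ± 0.20 (adjusted p = 0.0253).

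The same direction was measured for both genes in the other Ioc3 genotypes. *CAR2* stood at 15.2, 12.9 and 16.7 CPM in *ioc3*Δ and at 34.0, 34.1 and 66.9 CPM in *ioc3*Δ *yaf9*Δ, a log2 fold change of 1.46 ± 0.30 (adjusted p = 0.00271). In *ioc3*Δ*cHLB* it stood at 9.16, 15.2 and 20.47 CPM, and in the double mutant with the cHLB deletion at 90.5, 39.7 and 47.4 CPM, a log2 fold change of 1.89 ± 0.30 (adjusted p = 0.0010). The double mutants were spread more widely than *yaf9*Δ alone, with 1 high library in each, yet every library without *YAF9* lay above every library with it. *CAR1* had means of 89.9 ± 25.3 and 78.5 ± 4.21 CPM in *ioc3*Δ and *ioc3*Δ*cHLB*, against 193 ± 45.8 and 177 ± 16.7 CPM in the matching double mutants (SD, n = 3). These were log2 fold changes of 1.10 ± 0.20 (adjusted p = 0.000936) and 1.16 ± 0.20 (adjusted p = 0.00137). All 6 of these calls on *CAR1* and *CAR2* held under each of the 29 alternative settings.

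The permease and the first enzymes of allantoin use went down without *YAF9*. *DAL1* (chromosome IX, 406260 to 407642), the allantoinase, stood at 3.63, 2.82 and 4.02 CPM in wild type and at 1.70, 0.867 and 1.11 CPM in *yaf9*Δ. The level in *yaf9*Δ was 35.1% of the wild-type mean, and the log2 fold change was -1.02 ± 0.26 (adjusted p = 0.0194). *DAL4* (chromosome IX, 408468 to 410375), the allantoin permease, stood at 4.89, 2.95 and 2.76 CPM in wild type and at 1.31, 2.23 and 1.85 CPM in *yaf9*Δ, with a log2 fold change of -0.68 ± 0.21 (adjusted p = 0.0461). Libraries of neither gene overlapped, but both were close to the filter on low values, and with a pseudocount of 5 the changes were -0.45 and -0.32 and were not called.

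*DAL3* (chromosome IX, 415030 to 415617), the ureidoglycolate lyase that releases urea from the allantoin path, stood at 19.4, 22.0 and 18.6 CPM in wild type and at 7.71, 10.5 and 11.4 CPM in *yaf9*Δ. The level was thus 49.3% of wild type, with a log2 fold change of -0.96 ± 0.15 (adjusted p = 0.000653) that was called under every alternative setting. *DAL2* (chromosome IX, 410807 to 411838), the allantoicase, stood at 10.05, 10.4 and 10.6 CPM in wild type and at 6.92, 5.45 and 5.69 CPM in *yaf9*Δ. Its groups did not overlap either, and the log2 fold change was -0.70 ± 0.22 (adjusted p = 0.0491). The call on *DAL2* rested on few libraries: without wild-type replicate 2 or 3 the adjusted p was 0.112 or 0.125, and without *yaf9*Δ replicate 2 or 3 it was 0.147 or 0.146, with changes of -0.64 to -0.69, and with a pseudocount of 5 the change was -0.48 and was not called. The call on *DAL4* was lost without wild-type replicate 1 (log2 change -0.48) and without *yaf9*Δ replicate 1 or 3 (-0.55 and -0.70).

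In the *ioc3*Δ background, loss of *YAF9* raised 2 members and lowered 3, where 3.49% of all genes were called higher and 9.96% lower. In the *ioc3*Δ*cHLB* background it raised 3 and lowered 3, where 3.85% were called higher and 5.06% lower. *DAL1* fell from a mean of 8.52 ± 2.31 CPM in *ioc3*Δ to 1.96 ± 0.114 CPM in *ioc3*Δ *yaf9*Δ, and in the cHLB strains from 6.48 ± 1.69 CPM with *YAF9* to 1.73 ± 1.12 CPM without it (SD, n = 3). These were log2 fold changes of -1.66 ± 0.26 (adjusted p = 0.000327) and -1.51 ± 0.26 (adjusted p = 0.00141). *DAL4* fell likewise, by -1.55 ± 0.21 (adjusted p = 0.000124) and -1.06 ± 0.21 (adjusted p = 0.00383) on the log2 scale, the second of which was -0.56 and not called with a pseudocount of 5. *DAL2* fell by 0.65 and 1.03 on that scale (adjusted p = 0.0371 and 0.00584), and its call in the *ioc3*Δ background was lost without *ioc3*Δ replicate 3 or *ioc3*Δ *yaf9*Δ replicate 2 (-0.59 and -0.52), with a pseudocount of 5 (-0.47) and with array weights (-0.58). *DAL1*, *DAL2* and *DAL4* were thus the members called lower by loss of *YAF9* in all 3 Ioc3 genotypes. Their libraries with and without *YAF9* did not overlap in these contrasts, which is likely for genes picked by such calls. The share of all genes without overlap was not computed. *DAL3* was called lower by loss of *YAF9* in wild type alone, at -0.21 ± 0.15 (adjusted p = 0.30) in *ioc3*Δ and at -0.55 ± 0.15 (adjusted p = 0.0204), just short of 1.5-fold, in *ioc3*Δ*cHLB*.

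**Figure D2:**
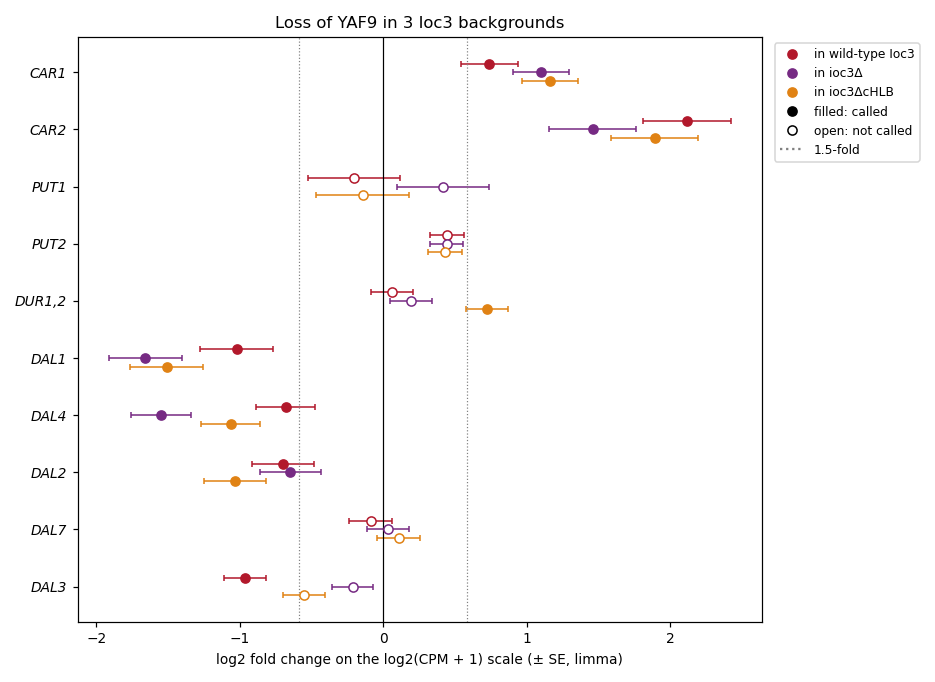
Log2 fold change on the log2(CPM + 1) scale (± SE, limma) for loss of *YAF9* in wild type, *ioc3*Δ and *ioc3*Δ*cHLB*, with filled points for called genes and dotted lines at 1.5-fold. *CAR1* and *CAR2* lie to the right in all 3 genotypes, from 0.74 to 2.12, and *DAL1*, *DAL2* and *DAL4* to the left, from -0.65 to -1.66.

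Loss of *IOC3* raised a partly different set. In *ioc3*Δ against wild type, 4 of 10 members rose and none fell, where 9.04% of all genes were called higher and 3.11% lower. The median log2 change was 0.37 over the members and 0.01 over all genes. *DAL4* rose the most, from 4.89, 2.95 and 2.76 CPM in wild type to 10.8, 7.95 and 10.5 CPM in *ioc3*Δ. That was 2.77 times the wild-type mean and a log2 fold change of 1.27 ± 0.21 (adjusted p = 0.000864). *DAL1* rose from 3.63, 2.82 and 4.02 CPM to 10.5, 5.98 and 9.07 CPM, with a log2 fold change of 1.06 ± 0.26 (adjusted p = 0.0105). The groups did not overlap for either gene, and both calls held under every alternative setting. The allantoin permease and allantoinase were therefore called higher without *IOC3* and lower without *YAF9*.

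*DUR1,2* (chromosome II, 636703 to 642210), the urea amidolyase on which the urea of both the arginine and the allantoin path converges, was raised by loss of *IOC3* whether or not *YAF9* was present. It stood at 75.9, 70.8 and 66.5 CPM in wild type and at 140, 132 and 105 CPM in *ioc3*Δ, a log2 fold change of 0.80 ± 0.15 (adjusted p = 0.00195). In *yaf9*Δ it stood at 71.6, 68.7 and 82.4 CPM and in *ioc3*Δ *yaf9*Δ at 158, 152 and 122 CPM, a log2 fold change of 0.94 ± 0.15 (adjusted p = 0.00063). Neither pair of groups overlapped, the level was 1.77 and 1.93 times that of the matching strain with *IOC3*, and the difference between these effects was 0.13 ± 0.21 (adjusted p = 0.741). Loss of *YAF9* alone left *DUR1,2* at a log2 change of 0.06 ± 0.15 (adjusted p = 0.849).

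*PUT1* (chromosome XII, 425186 to 426616), the mitochondrial proline dehydrogenase, also rose without *IOC3*, with and without *YAF9*. It stood at 28.3, 18.7 and 30.6 CPM in wild type and at 58.9, 41.4 and 52.6 CPM in *ioc3*Δ, a log2 fold change of 0.97 ± 0.32 (adjusted p = 0.0448). In *yaf9*Δ it stood at 19.6, 21.2 and 25.1 CPM and in *ioc3*Δ *yaf9*Δ at 68.9, 52.2 and 85.8 CPM, a log2 fold change of 1.59 ± 0.32 (adjusted p = 0.00458). The groups did not overlap in either case. The first of these calls was lost without wild-type replicate 2, *ioc3*Δ replicate 1 or *ioc3*Δ replicate 3, with log2 changes of 0.76, 0.86 and 0.94 (adjusted p = 0.158, 0.137 and 0.116), whereas the second held under every setting. Without both libraries of low mitochondrial ribosome CPM, 3 members were called in *ioc3*Δ against wild type, with *PUT1* at 0.76. The summed CPM of the 54 mitochondrial ribosome genes moved in the same direction, at 2713 to 5621 in wild type and 7149 to 8037 in *ioc3*Δ, and at 5720 to 6035 in *yaf9*Δ and 7600 to 8776 in *ioc3*Δ *yaf9*Δ. The part of this shift in the change of *PUT1* was not tested.

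In *ioc3*Δ *yaf9*Δ against *yaf9*Δ, 3 of 10 members rose and none fell, where 3.53% of all genes were called higher and 6.17% lower. Beside *DUR1,2* and *PUT1*, the third was *DAL3*. It stood at 7.71, 10.5 and 11.4 CPM in *yaf9*Δ and at 18.9, 15.5 and 18.8 CPM in *ioc3*Δ *yaf9*Δ, a log2 fold change of 0.79 ± 0.15 (adjusted p = 0.00209). With *YAF9* present, *ioc3*Δ left *DAL3* at 23.9, 18.2 and 20.1 CPM against 19.4, 22.0 and 18.6 CPM in wild type, groups that overlapped (0.04 ± 0.15, adjusted p = 0.873).

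The test of the difference between these effects of *ioc3*Δ, with and without *YAF9*, called 1 member higher and 1 lower, where 3.27% of all genes were called higher and 6.12% lower. For *DAL3* the effect was larger without *YAF9*, by 0.75 ± 0.21 on the log2 scale (adjusted p = 0.0436). For *DAL4* it was smaller without *YAF9*, by -0.87 ± 0.29 (adjusted p = 0.0817), since the gene rose by 1.27 with *YAF9* present and by 0.40 ± 0.21 (adjusted p = 0.209) in its absence. The *DAL3* call was lost without *ioc3*Δ replicate 3, *yaf9*Δ replicate 1 or *ioc3*Δ *yaf9*Δ replicate 1 (0.73, 0.60 and 0.70), and with a pseudocount of 5 (0.58). The *DAL4* call was lost when any of 9 single libraries was left out, each time with the same sign, and also with edgeR and with DESeq2 (adjusted p = 0.164 and 0.219).

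The cHLB deletion in the presence of *YAF9* called none of the 10 members, where 0.328% of all genes were called higher and 0.0173% lower. With limma, 3 members and 330 of the 5786 genes tested had an unadjusted p under 0.05, and edgeR and DESeq2 called 0 members as well. *DAL1* had the largest difference, at 8.41, 5.29 and 5.75 CPM in *ioc3*Δ*cHLB* against 3.63, 2.82 and 4.02 CPM in wild type (log2 0.72 ± 0.26, adjusted p = 0.488). *DAL4* stood at 5.26, 6.70 and 5.08 CPM against 4.89, 2.95 and 2.76 CPM (0.58 ± 0.21, adjusted p = 0.494). Libraries of both genes did not overlap between the strains, but neither gene passed the test. Without *YAF9*, the cHLB deletion raised 1 member and lowered none, where 2% of all genes were called higher and 2.63% lower.

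That member was *DUR1,2*, which stood at 133, 136 and 146 CPM in the double mutant against 71.6, 68.7 and 82.4 CPM in *yaf9*Δ. The log2 fold change was 0.89 ± 0.15 (adjusted p = 0.00261), and the call held under every alternative setting. With *YAF9* present, *ioc3*Δ*cHLB* stood at 73.2, 74.2 and 106 CPM, with 1 high library and the groups overlapping, and the log2 change was 0.23 ± 0.15 (adjusted p = 0.999). The difference between these effects was 0.66 ± 0.21 (adjusted p = 0.408), which did not pass the test over all genes. The same test called 0 of the 10 members, where 0.0173% of all genes were called higher and 0.104% lower, 1 member and 361 of the 5786 genes had an unadjusted p under 0.05, and edgeR and DESeq2 called 0 members. Loss of *YAF9* in *ioc3*Δ*cHLB* raised *DUR1,2* by 0.72 ± 0.15 on the log2 scale (adjusted p = 0.0047).

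**Figure D3:**
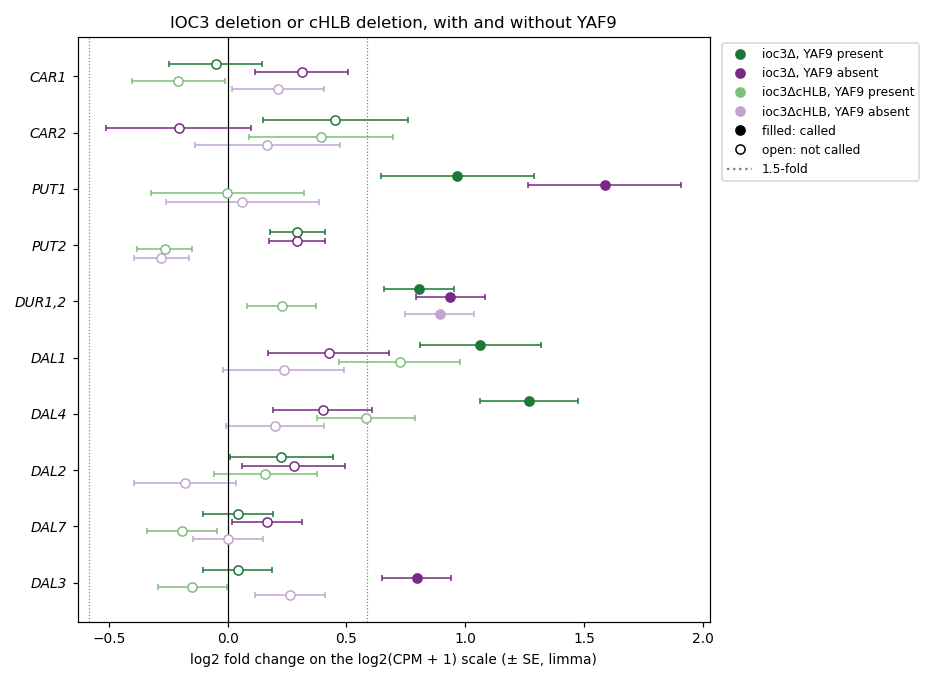
Log2 fold change on the log2(CPM + 1) scale (± SE, limma) for deletion of *IOC3* or of its cHLB part, with *YAF9* present or absent, with filled points for called genes. *DUR1,2* is called in 3 of these 4 contrasts, at 0.80, 0.94 and 0.89, and *PUT1* in both contrasts of *ioc3*Δ, at 0.97 and 1.59.

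The cHLB deletion and the full deletion of *IOC3* were also set directly against each other. With *YAF9* present, *ioc3*Δ*cHLB* was lower than *ioc3*Δ at 2 members and higher at none, where 7.57% of all genes were called lower and 2.42% higher. *DAL4* was lower by -0.68 ± 0.21 on the log2 scale (adjusted p = 0.0352) and *PUT1* by -0.97 ± 0.32 (adjusted p = 0.0532). *PUT1* was at 48.4, 17.1 and 19.4 CPM in *ioc3*Δ*cHLB*, so that its first replicate lay within the *ioc3*Δ range and the other two far below it. Without *ioc3*Δ*cHLB* replicate 2 or 3 the *PUT1* difference was -0.70 or -0.78 and without *ioc3*Δ replicate 1 or 3 it was -0.86 or -0.94, and it was not called. The *DAL4* call was lost without *ioc3*Δ replicate 1 or 3 (-0.61 and -0.63) and with a pseudocount of 5 (-0.46). *DUR1,2* was at -0.58 ± 0.15 (adjusted p = 0.0144), just short of 1.5-fold, with overlapping libraries. It was called with array weights (-0.63), with edgeR (-0.59), without *ioc3*Δ replicate 3 (-0.70) and without *ioc3*Δ*cHLB* replicate 3, alone or together with wild-type replicate 2 (-0.75).

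Without *YAF9*, *ioc3*Δ*cHLB yaf9*Δ was lower than *ioc3*Δ *yaf9*Δ at 1 member and higher at none, where 2.77% of all genes were called lower and 2.04% higher. It was again *PUT1*, at 33.8, 19.4 and 18.04 CPM against 68.9, 52.2 and 85.8 CPM (-1.53 ± 0.32, adjusted p = 0.0238). The libraries did not overlap, but the call was lost without *ioc3*Δ *yaf9*Δ replicate 1 (-1.51) and without *ioc3*Δ*cHLB yaf9*Δ replicate 2 (-1.41) or 3 (-1.36). In both strains with the cHLB deletion the first replicate had the highest *PUT1* level, and these libraries also had the highest summed mitochondrial ribosome CPM of their strain, at 4211 and 5980. *DUR1,2* differed by -0.04 ± 0.15 (adjusted p = 0.883) between the double mutants.

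A pair of members was called in no comparison. *PUT2* (chromosome VIII, 181977 to 183704), which oxidises the shared intermediate of proline and arginine breakdown to glutamate, stood at 161, 144 and 183 CPM in wild type and at 230, 212 and 221 CPM in *yaf9*Δ. Those groups did not overlap, but the log2 change of 0.45 ± 0.12 (adjusted p = 0.0238) was smaller than the 1.5-fold asked for a call. Loss of *YAF9* changed *PUT2* by 0.44 ± 0.12 (adjusted p = 0.0110) in *ioc3*Δ and 0.43 ± 0.12 (adjusted p = 0.0229) in *ioc3*Δ*cHLB*. These groups did not overlap either, and both changes were under 1.5-fold. *PUT2* was highest in *ioc3*Δ *yaf9*Δ, at 266, 263 and 283 CPM. Among the 9 contrasts between strains that were tested, its largest difference was between the double mutants, -0.57 ± 0.12 (adjusted p = 0.0195), with *ioc3*Δ*cHLB yaf9*Δ at 176, 182 and 187 CPM. This difference and that between *ioc3*Δ*cHLB* and *ioc3*Δ (-0.56 ± 0.12, adjusted p = 0.0048) lay close to the fold threshold and were called under some of the alternative settings.

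*DAL7* (chromosome IX, 413015 to 414679), a malate synthase that takes up the glyoxylate released from allantoin, stayed level. Its strain means ran from 40.4 ± 7.88 CPM in *ioc3*Δ*cHLB* to 48.4 ± 3.72 CPM in *ioc3*Δ *yaf9*Δ (SD, n = 3), the libraries of the strains overlapped in all 9 contrasts between strains, and the log2 changes ran from -0.24 to 0.17. Its coding sequence was 74.8% identical to that of the other malate synthase gene, *MLS1*, with no identical run longer than 19 bases. *DAL7* lies within the *DAL* cluster on the right arm of chromosome IX, where *DAL1*, *DAL4*, *DAL2*, *DCG1*, *DAL7* and *DAL3* follow each other over 9.36 kb between *YVH1* and *MGA2*.

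Neighbours in this cluster did not move as a block. In *yaf9*Δ against wild type, *DAL1*, *DAL4*, *DAL2*, *DCG1* and *DAL3* were called lower, with *DCG1*, a gene of the cluster that is not on the list of 10, at -0.75 ± 0.16 (adjusted p = 0.00741), and *DAL7* was at -0.09 ± 0.15 (adjusted p = 0.764). In *ioc3*Δ against wild type, *DAL1*, *DAL4* and *DCG1* were called higher, *DCG1* by 0.79 ± 0.16 (adjusted p = 0.00335), while *DAL2* was at 0.23 ± 0.22 (adjusted p = 0.503), *DAL7* at 0.04 ± 0.15 (adjusted p = 0.881) and *DAL3* at 0.04. In *ioc3*Δ *yaf9*Δ against *yaf9*Δ, *DCG1* and *DAL3* were called higher, by 1.21 ± 0.16 and 0.79 ± 0.15. The flanking genes moved in some contrasts as well: *MGA2*, next to *DAL3*, was called higher in the last of these by 0.98 ± 0.31 (adjusted p = 0.0471), and *YVH1*, next to *DAL1*, was called lower in *ioc3*Δ against wild type at -0.64 ± 0.14 (adjusted p = 0.0051).

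**Figure D4:**
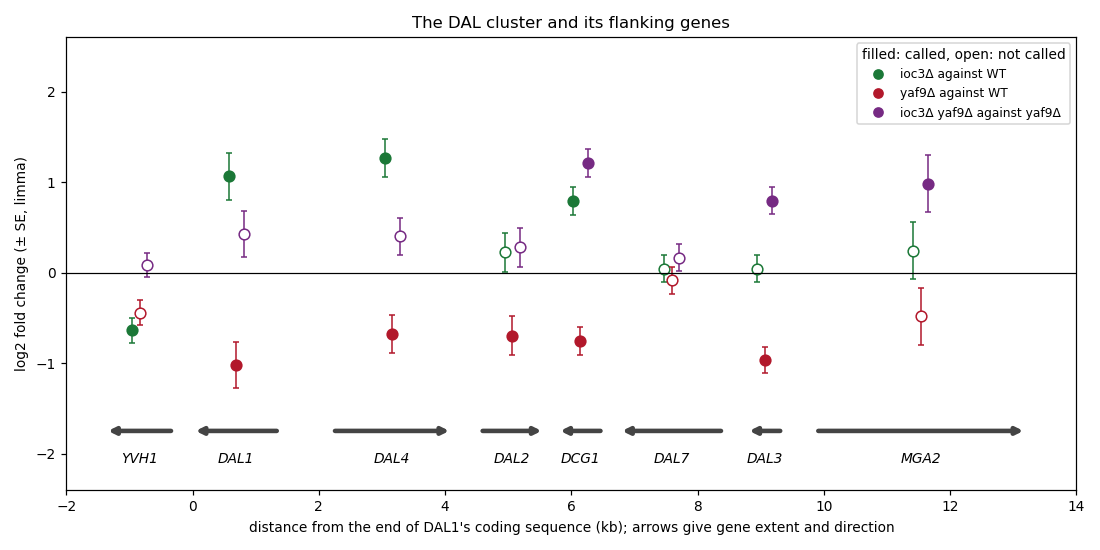
Log2 fold change (± SE, limma) of the genes of the *DAL* cluster and of the flanking genes *YVH1* and *MGA2*, against distance in kb from the end of the *DAL1* coding sequence, with arrows for gene extent and direction and filled points for called genes. *DAL7* lies near 0 in the 3 contrasts shown, between *DCG1* and *DAL3*, which were called lower in *yaf9*Δ by -0.75 and -0.96.

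Across the 18 libraries, some of the members had like patterns of log2(CPM + 1). Pearson's r was 0.914 for *DAL1* with *DAL4*, 0.87 for *DAL1* with *DAL2* and 0.766 for *DAL2* with *DAL4*. It was 0.76 for *CAR1* with *CAR2* and -0.821 for *CAR1* with *DAL1*. *DAL7* had r between -0.0756 and 0.386 with the other 9. The points share strains and library composition, so these are descriptions. Among genes that are not members and had a mean of at least 5 CPM, the most similar were *YGL204C* for *CAR2* (0.946), *TYW3* for *CAR1* (0.913), *SUV3* for *PUT1* (0.922), *RSM18* for *PUT2* (0.941) and *YSW1* for *DAL1* (0.952). For *DAL4* it was *PHM6* (0.951), for *DAL2* *TPT1* (0.915), for *DAL3* *TRI1* (0.879), for *DUR1,2* *DPI8* (0.89) and for *DAL7* *FLO5* (0.809).

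A list of 17 genes for uptake of these compounds and for neighbouring steps, all measured, had 3 higher and 0 lower in *ioc3*Δ against wild type, 0 called in *ioc3*Δ*cHLB* against wild type, and 1 higher and 3 lower in *yaf9*Δ against wild type. All genes had 9.04% higher and 3.11% lower, 0.328% higher and 0.0173% lower, and 3.91% higher and 3.61% lower in these contrasts. The list's median log2 changes were 0.20, 0.06 and -0.11, beside 0.01, 0.00 and -0.01 over all genes. In *ioc3*Δ, *UGA1*, the GABA transaminase, rose by 1.04 ± 0.30 (adjusted p = 0.0246) and *UGA4*, the GABA permease, by 0.83 ± 0.19 (adjusted p = 0.00799), along with *DCG1*. In *yaf9*Δ, the general amino acid permease *GAP1* was lower by -1.60 ± 0.59 (adjusted p = 0.0901) and the allantoate permease *DAL5* by -0.66 ± 0.13 (adjusted p = 0.00565), and the basic amino acid transporter *ALP1* was higher by 0.75 ± 0.21 (adjusted p = 0.0304).

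In *ioc3*Δ *yaf9*Δ against *yaf9*Δ, 2 genes of this list were higher and 2 lower, and in *ioc3*Δ*cHLB yaf9*Δ against *yaf9*Δ, 2 were higher and 0 lower, where all genes had 3.53% and 6.17%, and 2% and 2.63%, called higher and lower. The 2 higher genes were *DCG1* and the glutamine synthetase gene *GLN1* in both contrasts, with *GLN1* at 0.71 ± 0.21 (adjusted p = 0.0334) and 0.93 ± 0.21 (adjusted p = 0.0169). The proline permease gene *PUT4* was lower in *ioc3*Δ *yaf9*Δ, at 46.5 ± 12.2 CPM against 165 ± 16.8 CPM in *yaf9*Δ (SD, n = 3; -1.83 ± 0.47, adjusted p = 0.0175). *PUT1* rose in this contrast and in *ioc3*Δ against wild type, where *PUT4* was not called (-0.69 ± 0.47, adjusted p = 0.33). The urea permease gene *DUR3*, in contrast to *DUR1,2*, was not called, at 0.25 ± 0.21 in *ioc3*Δ against wild type and 0.03 ± 0.21 in *ioc3*Δ *yaf9*Δ against *yaf9*Δ (adjusted p = 0.436 and 0.952).

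Of 14 regulators of these pathways, all measured, *DAL80* was the only one called in any of the 5 main comparisons. It was called in each of them, lower in *yaf9*Δ and higher in the others. All genes had 9.04% higher and 3.11% lower in *ioc3*Δ, 0.328% and 0.0173% in *ioc3*Δ*cHLB*, and 3.91% and 3.61% in *yaf9*Δ. Against *yaf9*Δ, all genes had 3.53% higher and 6.17% lower in *ioc3*Δ *yaf9*Δ, and 2% and 2.63% in *ioc3*Δ*cHLB yaf9*Δ. *DAL80*, a GATA repressor that is itself under nitrogen catabolite repression, averaged 26.8 ± 3.495 CPM in *ioc3*Δ, 16.3 ± 5.05 CPM in *ioc3*Δ*cHLB*, 5.22 ± 1.14 CPM in wild type and 1.76 ± 1.09 CPM in *yaf9*Δ (SD, n = 3). Its log2 changes against wild type were 2.17 ± 0.27 (adjusted p = 6.7e-05), 1.46 ± 0.27 (adjusted p = 0.0264) and -1.23 ± 0.27 (adjusted p = 0.00929). *DAL1* and *DAL4* were called in the same directions in *ioc3*Δ and *yaf9*Δ, but not in *ioc3*Δ*cHLB*. *DAL80* was also higher in both double mutants against *yaf9*Δ, by 1.56 ± 0.27 (adjusted p = 0.00126) in *ioc3*Δ *yaf9*Δ and 0.98 ± 0.27 (adjusted p = 0.0478) with the cHLB deletion, where *DAL1* and *DAL4* were not called. *GLN3*, *GAT1*, *GZF3*, *PUT3*, *DAL81*, *DAL82* and *UME6* were among the 13 not called.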

How the data were processed

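The authors mapped strand-specific paired-end reads to sacCer3 (TopHat2 version 2.0.10, with Bowtie2 version 2.0 also named in the submitters' processing notes), counted them per gene with HTSeq, and deposited a signal per gene from edgeR version 3.6.2, CPM on the effective library size, with replicates kept apart. The strand setting of the counting is not given in the sources used here. In every library 100% of the deposited values were whole multiples of 1 read (tolerance 0.01 reads), which gave the reads behind each value. The table holds 5830 genes, of which 5634 matched the RefSeq annotation of the same build and 196 did not, and 4 emptied lines are not analysed here.

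The 5786 genes that reached 1 CPM in 3 or more of the 18 libraries were tested on log2(CPM + 1) with limma version 3.58.1 in R version 4.3.3, in one fit of every library, with strain as the only factor and a mean-variance trend. P-values were Benjamini-Hochberg adjusted over all genes within each of 11 comparisons (9 between strains and 2 differences of effects), and genes were called at an adjusted p under 0.1 and at least 1.5-fold, after the study's methods. The 5 main comparisons set *ioc3*Δ, *ioc3*Δ*cHLB* and *yaf9*Δ against wild type and both double mutants against *yaf9*Δ. Comparisons that share a control strain are not independent. The pipeline was tested on simulated data. Intervals and limits from read counts cover counting error only.

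The alternatives tried were median-of-ratios scaling, a pseudocount of 0.25 or of 5, testing without the filter, fitting the compared strains alone, array weights, an adjusted p under 0.05, a replicate block, counts recovered from the CPM tested with edgeR version 4.0.16 (quasi-likelihood) or DESeq2 version 1.42.0, leaving out wild-type replicate 2 and *ioc3*Δ*cHLB* replicate 3 together, and leaving out each library in turn. On recovered reads, edgeR called 747 genes and DESeq2 738 for *ioc3*Δ against wild type, and 464 and 474 for *yaf9*Δ against wild type, where limma called 703 and 435.

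Each library's deviation from its strain mean was correlated with that of the like-numbered library of every other strain, to see whether numbers pair cultures. All 3 correlations exceeded 0.1 in 2 of 15 strain pairs, at 0.206, 0.212 and 0.11 between wild type and *ioc3*Δ and at 0.23, 0.602 and 0.572 between *ioc3*Δ and *ioc3*Δ *yaf9*Δ.

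All 10 members are named. Of the 2 lists (uptake and neighbouring steps, regulators), at most the 4 called genes of largest change are named per main comparison; *DUR3* and the uncalled regulators were named after their values were seen. The members and lists were chosen with earlier results of these data known.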

Additional observations from a re-analysis of the deposited data

Results flagged for a closer look

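The effect of *ioc3*Δ differed with the presence of *YAF9* for 2 members, by the test of the difference itself (limma, adjusted over all genes). This was 1 member called higher and 1 lower, where 3.27% of all genes were called higher and 6.12% lower. For *DAL3* the effect on the log2 scale was larger without *YAF9* by 0.75 ± 0.21 (adjusted p = 0.0436), which was 0.58 and under 1.5-fold with a pseudocount of 5. For *DAL4* it was smaller without *YAF9*, at -0.87 ± 0.29 (adjusted p = 0.0817). The *DAL4* difference was not called by edgeR or DESeq2, with a pseudocount of 0.25 or at an adjusted p under 0.05. Its call was also lost when any of 9 single libraries was left out, and the *DAL3* call when any of 3 was.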

How the results depend on the processing

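Of 110 results (10 members in 11 comparisons), 30 were called, 19 of them under all 29 alternative settings, 11 were lost under at least 1, and none reversed. The replicate block changed 0 member calls (6 called in *yaf9*Δ against wild type with it as without). The number of members called in *yaf9*Δ against wild type fell from 6 to 3 with a pseudocount of 5. For *ioc3*Δ*cHLB* against *ioc3*Δ (2 called) it was 1 with a pseudocount of 5 or an adjusted p under 0.05, 4 with array weights, and 0 to 3 when single libraries were left out. Between the double mutants (1 called) it was 2 with array weights or edgeR and 0 to 3 when single libraries were left out. For the difference in the effect of *ioc3*Δ with and without *YAF9* (2 called) it was 1 with a pseudocount of 0.25 or 5, an adjusted p under 0.05, edgeR, DESeq2 or without wild-type replicate 2 and *ioc3*Δ*cHLB* replicate 3, 4 with array weights, and 0 to 2 when single libraries were left out. For the difference in the effect of the cHLB deletion (0 called) it was 1 with array weights. The cause of these shifts was not tested. *DAL1* and *DAL4* had means of 1.23 to 2.67 CPM in the strains without *YAF9*, so that depth and the pseudocount limit their fold changes. Over all genes, some counts of calls moved by more than 1.5 times: with a pseudocount of 5 from 435 to 271 (*yaf9*Δ against wild type) and from 516 to 318 (*ioc3*Δ*cHLB yaf9*Δ against *ioc3*Δ*cHLB*), for *ioc3*Δ*cHLB* against wild type from 20 to 2 with the compared strains alone and 45 with DESeq2, with array weights from 268 to 590 (*ioc3*Δ*cHLB yaf9*Δ against *yaf9*Δ), and between the double mutants from 278 to 802 with array weights, 163 with the compared strains alone and 126 at an adjusted p under 0.05. The difference of *ioc3*Δ effects went from 543 to 1195 with array weights and 300 at an adjusted p under 0.05, and that of cHLB effects from 7 to between 0 (replicate block, edgeR, or an adjusted p under 0.05) and 221 (array weights). Leaving out single libraries moved the all-gene counts, and with them the shares printed beside the member counts, further: between the double mutants to 31 (without *ioc3*Δ *yaf9*Δ replicate 1) and 646 (without *ioc3*Δ*cHLB yaf9*Δ replicate 1), for *ioc3*Δ*cHLB yaf9*Δ against *yaf9*Δ to 145 (without *yaf9*Δ replicate 1) and 461 (without *ioc3*Δ*cHLB yaf9*Δ replicate 1), for *ioc3*Δ*cHLB* against wild type to 8 (without *ioc3*Δ*cHLB* replicate 3) and 74 (without wild-type replicate 2), for *yaf9*Δ against wild type to 265 (without *yaf9*Δ replicate 1), for *ioc3*Δ *yaf9*Δ against *yaf9*Δ from 561 to 319 (without *ioc3*Δ *yaf9*Δ replicate 1), for the difference of *ioc3*Δ effects to 178 (without *ioc3*Δ replicate 3) and 859 (without *ioc3*Δ *yaf9*Δ replicate 3), and for that of cHLB effects to 0 to 23. The other 4 comparisons stayed within 1.5 times.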
